A study of Mus musculus with 12 samples.

Results

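Partly methylated promoters are those at which the sampled tissue gave a sizeable share of both methylated and unmethylated reads, though 1 state could still prevail. A promoter was taken here as an autosomal protein-coding transcript start of GENCODE vM21 basic (mm10), with its surroundings to 500 bp on either side. It was kept where 3 or more rows, a row being the cytosine of a CpG on a given strand, were covered by 10 or more reads in all 12 libraries. A promoter was a member where the mean methylation level over its rows and libraries was 20% or more and under 80%. Overlapping member starts of a gene counted as 1. The rule found 259 members, in 255 genes, among 12947 promoters of 12308 genes. Another 12639 promoters were under 20% and 49 were at 80% or more. The members were thus chosen by their level, which is described below without a test.

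The libraries were made by reduced representation bisulfite sequencing (RRBS), which reads DNA fragments ending in MspI cut sites and so favours CpG-rich sequence. DNA came from a dissected mixture of hippocampus and cortex of mice labelled 11 months old. There were 4 wild-type (Wt) libraries, 3 labelled female and 1 male, and 8 libraries of Tg2576 (Tg) mice, 4 of each sex. Tg2576 mice carry a human APP transgene with the Swedish mutation, driven by a hamster prion protein promoter, and develop amyloid plaques with age, while the Wt animals lack the transgene. The mice came from a commercial breeder, and the study's methods give an age range that extends above the labelled age. Each library is a separate mouse, and no litter, cage or preparation batch was used here.

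Deposited rows per library numbered between 1380585 and 2652395, with 33619981 to 131446104 reads summed over rows. The library labelled Wt male had a mean X-linked level of 19.9%, while the Tg males lay from 5.50% to 5.67% and the 7 females from 20.7% to 23.0%. Its X level therefore went against its label. Sex as labelled was a term of the genotype test, and values without that library are given where they bear on a result. No pair of libraries had equal counts at more than 4.07% of autosomal rows.

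In mammals a cytosine followed by guanine can carry a methyl group that is copied when DNA replicates. Most CpG-rich promoters are free of it, and dense methylation of a promoter goes with silencing of its gene. At imprinted genes a control region is methylated on the copy from a single parent, and the germline, tissue-restricted genes and CpG-poor promoters are other settings in which a tissue can hold both states. In bulk DNA the share of cells methylated and the share of alleles methylated within each cell cannot be told apart.

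Stretches of 8 members are shown as examples. In some, rows stood at nearly the same level side by side, and in others they differed within a short distance. The letters are the mm10 reference (RefSeq), 5′ to 3′ on the gene's strand, outside annotated untranslated regions, and capitals mark the CpGs with a measured row. The first 5 belong to imprinted genes. Mcts2 (chr2:152686786-152686985, plus strand) and Nap1l5 (chr6:58906672-58906871, minus strand, coding) are retrogenes that lie within introns of other genes. Plagl1 (chr10:13091025-13091224, plus strand, intron) encodes a zinc finger transcription factor. Nnat (chr2:157560297-157560446, plus strand) encodes neuronatin. The Gnas stretch (chr2:174327942-174328091, plus strand) lies after the most downstream member start of the gene for the stimulatory G protein alpha subunit. Esam (chr9:37527875-37528074, plus strand, upstream of the start) encodes an endothelial adhesion molecule. Aldh1l1 (chr6:90550403-90550602, plus strand, upstream) encodes a folate enzyme used as an astrocyte marker. Krt7 (chr15:101412474-101412673, plus strand, coding) encodes a keratin of simple epithelia.
Mcts2: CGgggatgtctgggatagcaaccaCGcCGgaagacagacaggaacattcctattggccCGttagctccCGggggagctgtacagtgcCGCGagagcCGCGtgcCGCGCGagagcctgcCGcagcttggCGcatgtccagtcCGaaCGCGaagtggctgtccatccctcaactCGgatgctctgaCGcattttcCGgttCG
Nap1l5: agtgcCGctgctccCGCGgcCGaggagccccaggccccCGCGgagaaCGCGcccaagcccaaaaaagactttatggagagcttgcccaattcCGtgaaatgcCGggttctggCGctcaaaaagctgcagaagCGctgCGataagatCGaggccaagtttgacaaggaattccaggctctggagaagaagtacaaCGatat
Plagl1: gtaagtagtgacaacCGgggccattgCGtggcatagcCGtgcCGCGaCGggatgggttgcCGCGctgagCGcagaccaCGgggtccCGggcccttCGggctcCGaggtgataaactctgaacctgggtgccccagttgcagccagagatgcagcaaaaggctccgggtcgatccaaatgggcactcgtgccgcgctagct
Nnat: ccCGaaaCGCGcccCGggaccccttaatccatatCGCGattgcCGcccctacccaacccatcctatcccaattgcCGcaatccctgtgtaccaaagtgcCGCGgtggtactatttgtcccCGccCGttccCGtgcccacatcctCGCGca
Gnas: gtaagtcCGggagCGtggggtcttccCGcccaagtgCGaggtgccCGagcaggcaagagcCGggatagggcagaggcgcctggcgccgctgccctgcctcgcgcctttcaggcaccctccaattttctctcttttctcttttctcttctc
Esam: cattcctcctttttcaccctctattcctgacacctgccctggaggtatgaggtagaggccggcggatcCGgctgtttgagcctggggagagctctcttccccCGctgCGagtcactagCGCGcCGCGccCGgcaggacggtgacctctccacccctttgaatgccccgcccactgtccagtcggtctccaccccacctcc
Aldh1l1: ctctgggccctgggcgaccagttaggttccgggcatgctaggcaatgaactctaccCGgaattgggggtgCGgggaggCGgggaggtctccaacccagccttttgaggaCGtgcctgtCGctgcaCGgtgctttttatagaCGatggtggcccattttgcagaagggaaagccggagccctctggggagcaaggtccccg
Krt7: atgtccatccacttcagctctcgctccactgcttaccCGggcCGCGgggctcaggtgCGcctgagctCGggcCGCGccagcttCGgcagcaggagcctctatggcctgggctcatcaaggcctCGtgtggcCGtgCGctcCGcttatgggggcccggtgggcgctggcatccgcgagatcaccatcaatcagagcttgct

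Within the Mcts2 stretch, 38 rows at 21 CpGs lay between 21.9% and 32.5%. The 24 rows of the Nap1l5 stretch lay between 21.1% and 31.3%. The 11 rows of the Gnas stretch lay between 19.8% and 26.6%, and the 18 of the Nnat stretch more widely between 18.3% and 35%, 3 of them under 20%. The 23 rows of the Plagl1 stretch lay between 25.5% and 32.7%, although all 61 rows of that member ran from 10.1% to 36.7%. Levels within these stretches thus spanned under 20 points. By contrast, the 14 rows of the Esam stretch ran from 6.77% to 61.8%, the 7 rows of the Aldh1l1 stretch from 7.54% to 45.0%, and the 12 rows of the Krt7 stretch from 10.7% to 49.1%. Neighbouring CpGs a few bases apart were there at different levels.

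**Figure D1:**
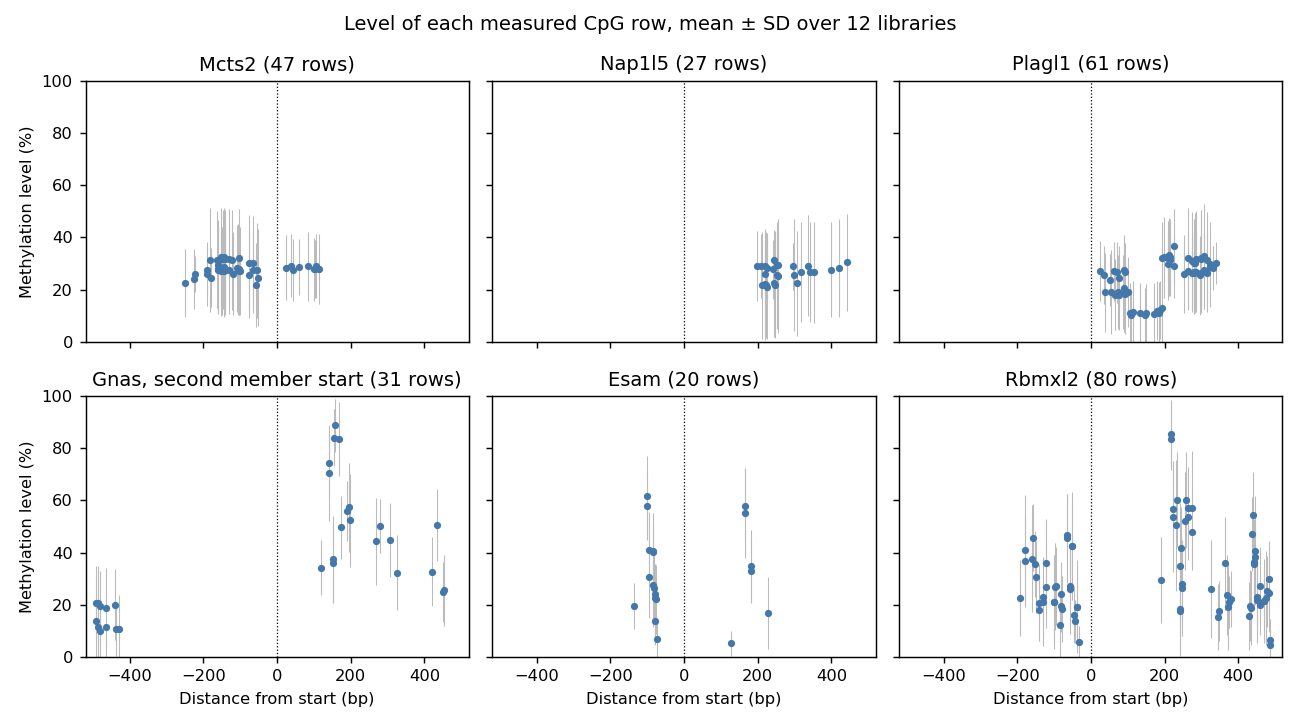
Mean methylation level (%, with SD over 12 libraries) of each measured row against distance from the transcript start (bp, dotted line at the start) at 6 members. Rows of Mcts2 and Nap1l5 lie in a narrow band between 21.1% and 32.5%, whereas those of Gnas (the middle of its 3 member starts), Esam and Rbmxl2 are spread from 4.47% to 88.8%.

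Most members were in the lower part of the range. Of the 259, 98 were at 20% to under 30%, 98 at 30% to under 50%, 42 at 50% to under 70% and 21 at 70% to under 80%. The quartiles were 26.1%, 34.4% and 49.9%. At the lower threshold, Madcam1, which encodes a mucosal adhesion molecule, was just inside at 20.2%, and Gnb3, which encodes a G protein beta subunit, was just outside at 19.9%. At the upper threshold, 1700028K03Rik was just inside at 79.6% and Enpp7, which encodes an intestinal phosphodiesterase, was just outside at 81.4%.

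Members held 2536 distinct rows at 1915 CpGs. Few rows supported many of them, with 3 or 4 rows at 108 members and 10 or more at 67, and all rows within a single MspI fragment at 61. A partly methylated promoter usually had partly methylated rows: 71.6% of the rows were themselves at 20% to under 80%, 24.4% were under 20% and 4.06% were at 80% or more. At 67 members every row was in the middle range, at 17 there were rows both under 20% and at 80% or more, and 0 members lacked middle rows. Only 5 members with 10 or more rows had all of them in the middle range, namely the imprinted Mcts2 and Nap1l5, the zinc finger gene Zfp462, Ptchd3 and the myoblast fusion gene Mymx.

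Levels changed little with position. The median row level was 26.5% over 187 rows more than 250 bp upstream of the start, 30% over 688 rows nearer to it upstream, 29.5% over 1102 rows from the start to 250 bp downstream, and 32.3% over 704 rows beyond. A row in the window of 2 members is counted at each. Coding sequence held 35% of the distinct rows, other exonic sequence 26.0%, introns 24.4% and intergenic sequence 14.6%. At 622 CpGs measured on both strands, the strands differed by a median of 4.07 points and by 9.68 points at the 90th percentile.

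The members were poorer in CpG than other promoters, a property that the rule did not use. Their median ratio of observed to expected CpG was 0.346, against 0.756 at promoters under 20% and 0.383 at promoters of 80% or more. The ratio was under 0.6 at 87.6% of members and at 18.8% of promoters under 20%. Members made up 160 of 585 promoters (27.4%) with a ratio under 0.4, 67 of 2058 (3.26%) at 0.4 to 0.6, 22 of 5391 (0.408%) at 0.6 to 0.8, and 10 of 4913 (0.204%) above. Partial methylation was thus recorded mostly at CpG-poor starts, which RRBS samples thinly: the median number of rows was 6 at members and 44 at promoters under 20%. Median reads per row were 36.2 and 48.8, and the part of the lower sampling in these shares was not tested.

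**Figure D2:**
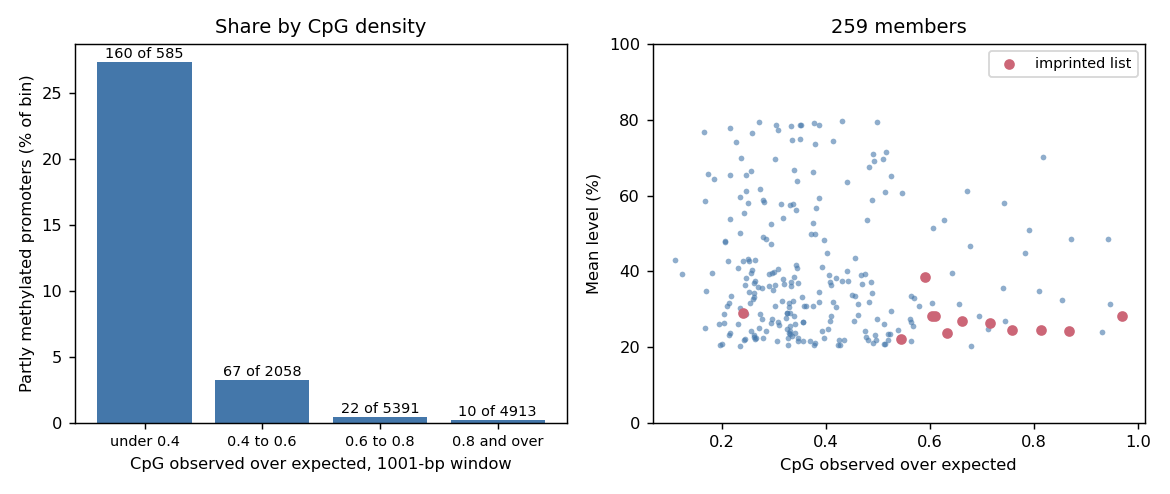
Left, share of promoters that were partly methylated (%) in 4 bins of the ratio of observed to expected CpG, with counts above the bars. Right, mean level (%) of each of the 259 members against that ratio, with members of the imprinted list in red. The share falls from 27.4% in the lowest bin to 0.204% in the highest.

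The GC box GGGCGG, the site of Sp1-type factors, was found on either strand within 500 bp of the start at 52.9% of members and 89.8% of all promoters. The TATA box letters TATAAA were present at 25.5% and 17.5%. The E-box CACGTG was present at 15.4% and 20.9%. The hexamer TGCCGC, which the imprinting factor ZFP57 binds when methylated, was present at 28.2% of members and 53.4% of all promoters, and at 8 of 12 members of the imprinted list. It occurred 3 times each in the printed stretches of Mcts2, Plagl1 and Nnat, 1 time in that of Nap1l5, and not in those of Gnas, Esam, Aldh1l1 and Krt7. The windows differ in CpG content, to which GGGCGG and TGCCGC are tied by their letters, and the motifs may overlap.

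Member starts were more often internal to their genes than starts under 20%. A start more than 1000 bp downstream of another start of the gene was found at 63 members (24.3%), at 7.91% of promoters under 20% and at 22.4% of those at 80% or more. Single-exon genes made up 8.49% of members, 2.52% of promoters under 20% and 8.16% of those at 80% or more. In both traits members were thus close to the highly methylated promoters. At 55 members (21.2%) the same gene had another promoter, more than 1000 bp away, under 20%. The share was 16.3% at promoters of 80% or more and 8.69% at those under 20%. For the members, this other promoter was upstream at 38 and downstream at 17, at a median distance of 10804 bp. Its level was at most 5.94%.

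Several genes of neurons and glia showed this division between starts. Mbp, which encodes myelin basic protein, was at 43.5% at its downstream start (3 rows, libraries from 18.5% to 66.7%) and at 2.37% at the start 79322 bp upstream. Slc6a9, the glycine transporter of glia, was at 28.9% at chr4:117849370 and at 0.862% at the start 13973 bp upstream. Kif1a, a kinesin of axonal transport, was at 23.2% and 2.07% at starts 19530 bp apart. Adgrb2, a brain adhesion receptor, was at 78.6% and 0.546% at starts 6904 bp apart. In each of these genes the upstream start was the one under 20%, whereas at 17 members it was a downstream one.

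Gnas held both states within a single locus. Its 3 member starts on chromosome 2, plus strand, were at 23.8% (position 174284320), 38.6% (174297859) and 24.6% (174327768). The start at position 174330097, only 2329 bp beyond the last of these, was at 0.664% over 153 rows. The outer member starts had rows from 13.5% to 32.5% and from 19.8% to 30.8%. The middle start differed from both, with rows from 9.86% to 88.8%. It also varied least between animals, from 33.9% to 46.6%, against 12.2% to 40.4% and 10.3% to 36.3% at the outer starts.

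Genes of the imprinted list were the largest named group. Of 61 measured promoters in the list, 49 were under 20%, 12 (19.7%) were members and 0 were at 80% or more, beside 2.0% members among all promoters. Peg3, a zinc finger gene, and Usp29, a gene of the ubiquitin protease family that starts nearby on the opposite strand, were measured by the same 8 rows, so that 11 of the 12 were distinct. These 11 lay between 22.2% and 38.6% with a median of 26.4%, and 10 were under 30%. All were below the 50% that methylation of 1 allele of 2 in every cell would give, but with 250 bp on either side the middle Gnas start was at 60.4% and the most upstream at 14.1%.

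Mcts2 was at 28.2% with libraries from 12.7% to 41.6% (median 28.9%) over 47 rows. Nap1l5 was at 26.4% with libraries from 9.83% to 42.7% over 27 rows. Plagl1 was at 24.4%, from 13.2% to 37.4%, over 61 rows. At Mcts2 and Nap1l5 the rows were at like levels and the animals at unlike ones, whereas at Plagl1 the SD between rows (7.60 points) exceeded that between libraries (5.93 points). Nnat was at 24.1% (12% to 35.3%), Zrsr1, an imprinted splicing factor retrogene, at 27.0% (17.5% to 37.8%), and the transporter gene Slc22a18 at 28.9% (19% to 44.7%). Magel2, a gene of the Prader-Willi region, was at 22.2% (14.7% to 26.3%). The Peg3 and Usp29 window was at 28.1%, with 11 libraries from 22.2% to 41.6% and the library labelled Wt male at 4.35%.

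**Figure D3:**
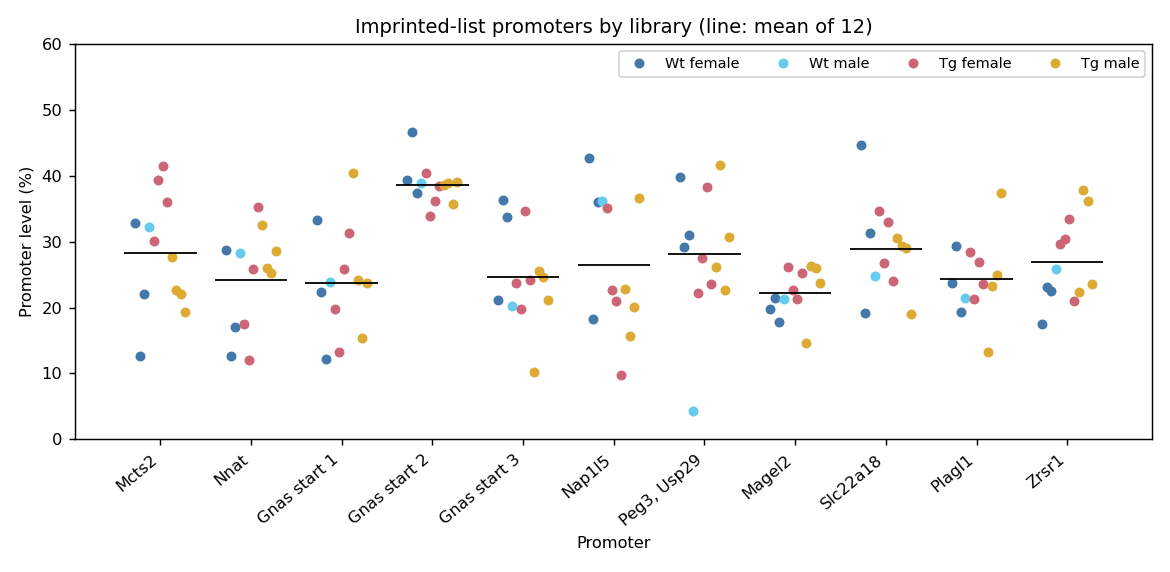
Promoter level (%) of the 11 distinct imprinted-list members in each of 12 libraries, coloured by genotype and labelled sex, with a line at the mean. Gnas starts are numbered 1 to 3 along the chromosome. Means lie between 22.2% and 38.6%, libraries of each group are intermixed, and the Wt male library is at 4.35% at Peg3 and Usp29.

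The spread between animals exceeded counting error at all 259 members. The median SD between libraries was 8.91 points, against 3.36 points from read counting alone. Since a read can cover several CpGs and was summed at each, the same was computed per row: the median SD between libraries was 14.2 points against 7.92 points from counting, and the Pearson dispersion, which is 1 under counting error alone, had a median of 3.63. It was 3.35 over the rows of imprinted-list members, 3.67 over those of the other members and 2.67 at promoters of 80% or more. At promoters below the lower threshold, the median SD of the promoter level between libraries was 0.580 points, against 0.218 points from counting. Spread beyond counting error was thus not limited to the members. No molecular identifiers are described for these libraries, so SDs from counting cover counting error only.

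Animals differed more than rows did at 12 of the 67 members with 10 or more rows. These were the imprinted Mcts2, Nnat, Nap1l5, Zrsr1 and 2 of the Gnas starts, together with Slc6a9, the zinc finger gene Zfp180, the respiratory complex I subunit gene Ndufc2, the synaptonemal complex gene Sycp2l, Krt7 and the protocadherin Pcdhga1. Zfp180 was at 24.8% (9.11% to 43.0%) with rows only from 18.6% to 29.4%. Ndufc2 was at 20.3% (6.82% to 43.7%).

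Rows differed widely at other members. Serping1, which encodes the C1 inhibitor of complement, was at 41.7% with rows from 3.88% to 65.4%. Rbmxl2, a germ-cell retrogene for an RNA-binding protein, was at 31.5% over 80 rows from 4.47% to 85.6%. Speg, which encodes a striated muscle kinase, was at 23.4% over 54 rows from 2.60% to 52.6%, although its libraries differed only from 20.8% to 27.4%, and its SD between rows, 13.9 points, was near the members' median of 14.3. The gene 4933428G20Rik was at 24% over 74 rows from 6.33% to 62.2%. At these promoters a mean in the middle range averaged rows of unlike level.

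A few members had far more reads per row than the rest, and their values are uncertain. Whether their reads came from several copies of a sequence was not tested. Tmem267 and 3110070M22Rik, which share a window of 99 rows, were at 48.5% with rows from 1.81% to 98.4% and 104 reads per row. With 250 bp on either side, Tmem267 was at 4.57% and no member. Sfi1, a centrosome gene, was at 70.3% with 439 reads per row and a dispersion of 870. Gm10801 was at 53.6% with 4417 reads per row. The next highest member, Zfp180, had 73.5.

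The germline list, genes whose promoters are commonly methylated in somatic tissue, had 21 measured promoters, of which 12 were under 20%, 4 (19%) were members and 5 were at 80% or more. Ddx4, an RNA helicase of germ cells, was at 58.1% (41.0% to 77.2%). Tdrd1, a piRNA pathway gene, was at 61.2% (39.2% to 73.3%). Meioc, a meiosis gene, was at 50.8% (36.1% to 62.5%). Pou5f1, a pluripotency factor, was at 37.3% (26.7% to 53.1%) over 3 rows. All but Pou5f1 were thus above 50%, where no imprinted-list member stood except the middle Gnas start in the narrower window. This holds for the list only. Outside it, the germ-cell gene Rbmxl2 was at 31.5%, and the testis and germ-cell genes of the closing observations lay on both sides of 50%.

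Of the clustered protocadherins, cell-surface proteins that neurons express in varied combinations, 15 promoters were measured, 11 under 20% and 4 (26.7%) members. Pcdhb13 was at 58.8% and stood above Pcdhga8 at 27.0%, Pcdhga1 at 26.6% and Pcdhb1 at 21.9%. Libraries ran from 52.5% to 66.4% at Pcdhb13 and from 12.5% to 48.8% at Pcdhga1.

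Lists of cell type markers differed in how many members they held. All 37 measured promoters of the neuron list and all 26 of the housekeeping list were under 20%. In the oligodendrocyte, astrocyte and endothelial and mural lists 13 of 14 were under 20% and 1 (7.14%) was a member: Mbp, Aldh1l1 at 26.1% (3.65% to 49.3%) and Esam at 31.9% (26.7% to 40.5%), respectively. The blood list held 3 members of 13 promoters (23.1%) and 1 at 80% or more. Its members were the lymphocyte receptor gene Cd27 at 53.8%, the leukocyte integrin gene Itgal at 77.2% and the blood stem cell factor Tal1 at 26.1%. The Tal1 value rested on 4 rows, and the start 3082 bp upstream was at 2.85% over 75 rows. Only 2 promoters of the microglia list were measured, and Inpp5d, which encodes an inositol phosphatase of blood cells and is a risk locus for Alzheimer's disease, was a member at 61.8% (43.0% to 72.7%). It was also the 1 member of 29 promoters (3.45%) of the Alzheimer risk list.

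The epithelial list held 2 members of 25 (8%), Krt5, a basal keratin, at 79.3% and Krt7 at 25.5%. The extracellular matrix list, named for the theme of the study, held 1 member of 53 (1.89%), the cartilage collagen gene Col9a2 at 21.9%. Col9a2 was at 11.7% with 1000 bp on either side and at 18.8% with 20 or more reads per row, under the lower threshold in both. Thus the share of members was near the 2.0% over all promoters in the extracellular matrix and Alzheimer risk lists and at 0 in the neuron and housekeeping lists. In lists of this size a share of 0 cannot be told apart from 2.0%. Lists differ in CpG content, and no test was made of a list.

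**Figure D4:**
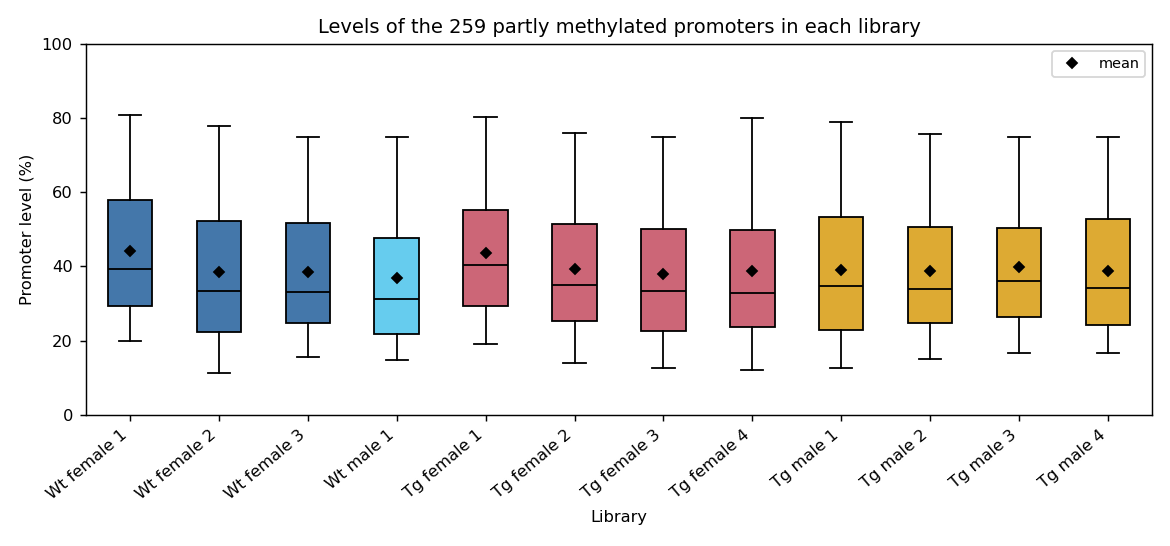
Promoter levels (%) of the 259 members in each library: box, quartiles with the median line. Whiskers run to the 5th and 95th percentiles and diamonds mark means. Means run from 36.9% to 44.2%, with Wt female 1 and Tg female 1 above the other 10.

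Averaged over the members, libraries ran from 36.9% (Wt male 1) to 44.2% (Wt female 1). The 4 Wt libraries averaged 39.5% ± 3.23 (SD) and the 8 Tg libraries 39.5% ± 1.75 (SD). The groups thus differed by 0.0289 points, less than the spread in either. Wt female 1 and Tg female 1, at 43.6%, stood above the other 10 libraries, which were at 39.9% or lower. Either was the highest at 80 of 259 members, and they were the highest pair at 28, where the next most frequent pair was at 12. Among imprinted-list members either was the highest at 2 of 12. The difference between genotypes was 1.01 points without these libraries and -0.857 points without the library labelled Wt male. Wt female 1 and Tg female 1 were also the highest at promoters below the lower threshold, with means of 1.49% and 1.44%. Over autosomal rows they were again the highest, with means of 6.06% and 5.92%. Their higher level was thus not limited to the members. At promoters at or above the upper threshold, however, Tg female 3 was the highest, at 91.1%.

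The study asked whether DNA methylation differs between Tg and Wt brain. With methylKit it reported single CpG sites that differed by more than 10% at a false discovery rate under 0.1. Genes it linked to such sites include the members Plagl1, Nnat and Col9a2 (higher in Tg) and Speg and Rbmxl2 (lower). Here whole promoters were tested in another model, so the calls below are not a test of those sites. The genotype test was a logistic model of summed reads with sex, corrected for overdispersion, and a promoter was called at a Benjamini-Hochberg adjusted p under 0.1 with a difference of 10 points or more. It called 0 members, beside 0% of the 12947 promoters. The smallest adjusted p of a member was 0.696. At an unadjusted p under 0.05 there were 9 members of 259, beside 6.18% of all promoters. limma called 0 promoters as well, on both the logit and the percent scale, with 6 and 10 members at an unadjusted p under 0.05, beside 4.54% and 4.08% of all promoters. Levels were higher in Tg at 132 members and lower at 127, beside 53.4% higher among all promoters, and the median difference was 0.0757 points at members and 0.0284 over all promoters.

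Without the correction for overdispersion, a binomial model called 27 promoters (0.209%), and 21 of them were members, 10 higher and 11 lower in Tg. The calls were all the promoters with a difference of 10 points or more (0.209%), and 21 of these 27 were partly methylated. Promoters below the lower threshold had a median level of 0.823% and an upper quartile of 1.15%. Most of them thus had little room for so wide a difference. The share of members among the 27 is therefore bound to the rule that chose members by level, and no conclusion is drawn from it. The binomial model allows for counting error only, and the median dispersion per member row was 3.63. Wt and Tg ranges did not overlap at 0 members, beside 0.232% of all promoters.

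Ssc4d, a scavenger receptor gene, had the smallest p of the members. Its Wt libraries were at 24.8%, 6.10%, 15.5% and 11.5%, and its Tg libraries ran from 23.2% to 32.9% (median 28.0%). The highest Wt library thus reached into the Tg range. The means were 14.5% ± 7.90 (SD, n = 4) and 28.5% ± 3.14 (SD, n = 8), a difference of 14.0 points (adjusted p = 0.696, logistic model over all promoters) over 4 rows. These rows lay at only 3 CpGs. With both strands of a CpG summed, Ssc4d was at 18.9%, under the lower threshold.

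Noxa1, an activator of NADPH oxidase, was at 68.5%, 46.3%, 72.3% and 52.4% in Wt and from 65.4% to 86.7% (median 75.1%) in Tg. The difference of 16.6 points had an adjusted p of 0.736 in the same model. Espnl, an actin-bundling gene, was at 40.6%, 25.6%, 34.8% and 28.1% in Wt and from 35.2% to 57.0% in Tg (12.1 points, adjusted p = 0.756). At both genes the groups overlapped. Magel2 differed by 3.17 points and Col9a2 by 4.38 points, both with an adjusted p of 0.756. The extremes over all members were Csf2rb, a cytokine receptor gene, which fell by 25.1 points from 81.1% in Wt to 56.0% in Tg (adjusted p = 0.836), and Tmprss13, a serine protease gene, from 16.3% to 38.0% (21.7 points, adjusted p = 0.756), each over 3 rows and neither past the test.

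**Figure D5:**
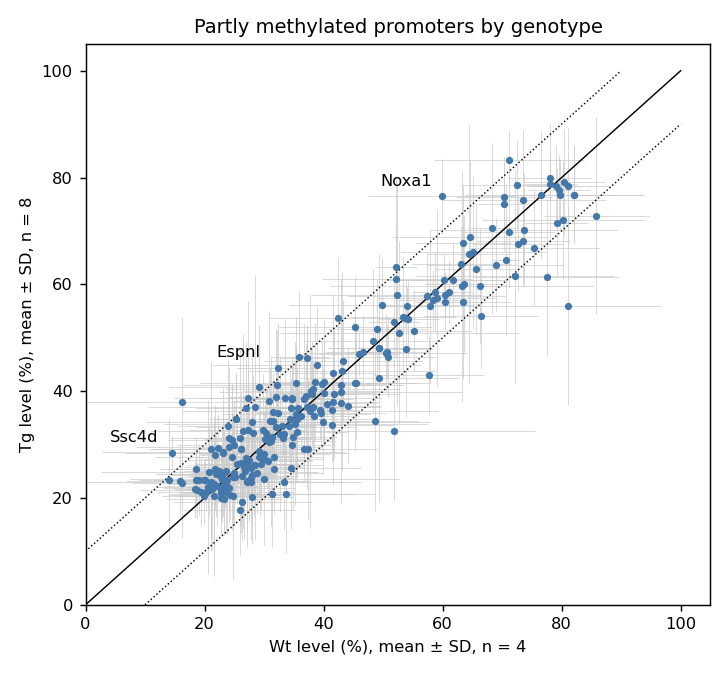
Mean level (%) in Tg (n = 8) against Wt (n = 4) for the 259 members, with SD bars, the line of equality and dotted lines at a difference of 10 points. Ssc4d, Noxa1 and Espnl are labelled, 21 members lie beyond the dotted lines, and none was called.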

How the data were processed

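Classic RRBS of brain DNA from 12 mice was done by a sequencing service, which also mapped reads to mm10 and called methylation with Bismark. The authors used methylKit (versions of both are not given in the sources used here). Each deposited file holds, per cytosine and strand, the coverage and the counts of methylated and converted reads, as raw counts at a coverage of 10 or more. RefSeq sequence of the same build and GENCODE vM21 basic starts were used.

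A row's level was methylated reads over coverage, and a promoter's level the mean over its rows. There were 11 rows listed more than once in a file, and 1 row whose counts did not sum to its coverage was dropped. Among 39540 starts, 22064 had 3 or more rows and 349 met the rule. Starts of a gene with overlapping windows were represented by the start with the most rows. Promoters of different genes could share rows, as 10 members did. At 6 members a start of the same gene under 20% had an overlapping window.

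Genotype was tested with a logistic model of summed reads with genotype and sex, a Pearson dispersion not below 1, an F test and Benjamini-Hochberg adjustment over 12947 promoters (Python 3.11.15, numpy 2.4.6, pandas 2.3.3, scipy 1.17.1). A binomial model and limma 3.58.1 (R 4.3.3) were alternatives, with others on reads per row, rows, window, strands, thresholds, sex term and single libraries. Scripts were tested on simulated data. The CpG ratio, motifs and GC content were taken over the window. Reads at a promoter, 10 or more per row and library, set its counting error only. Precision of a group mean also rests on the spread between animals, which was wider at the members.

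Members and the 13 gene lists (imprinted, clustered protocadherin, germline, epithelial, blood, microglia, neuron, oligodendrocyte, astrocyte, endothelial and mural, extracellular matrix, Alzheimer risk and housekeeping) were chosen with earlier results of these data known. Genes named with values were members of these lists, members with 10 or more rows and the smallest or largest SD between rows or the largest dispersion, those with the most rows, the 5 smallest p-values for genotype and the promoters at the thresholds. Kif1a, Slc6a9, Adgrb2, Zfp462, Ptchd3, Mymx, Sycp2l, Pou5f1, Gm10801, Csf2rb, Tmprss13 and the genes of the closing observations were named after their values were seen.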

Additional observations from a re-analysis of the deposited data

Results flagged for a closer look

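In groups of 4 or 8 libraries, the highest or lowest library was compared with the others by Dixon's criterion. Of 90 groups tested, 4 had a library standing apart, where chance at 1 in 20 would give 4.5. The mean level of the members in Tg female 1 was 43.6%, while the other 7 Tg libraries lay between 37.9% and 39.9%. Magel2 was at 14.7% in Tg male 1 and between 21.3% and 26.3% in the other Tg libraries. Esam was at 40.5% in Wt female 3 and between 30.3% and 31.3% in the other Wt libraries. Pcdhb13 was at 54.1% in the library labelled Wt male and between 61.6% and 63.1% in the Wt females.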

How the results depend on the processing

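The number of members depended on the minimum sampling: 52 of 10947 promoters at 20 or more reads per row, and 151 at 5 or more rows, against 259. It was 345 with 1000 bp on either side, 195 with 250 bp, and 255 to 266 with each library left out in turn, of which 253 to 259 were members with all 12. With rows counted as partly methylated only at 30% to under 70%, their share was 41.0%. Promoters called between genotypes rose from 0 to 27, and members from 0 to 21, in the binomial model, and 1 promoter was called without a minimum difference. Both counts were 0 with each library left out in turn, and also, chosen after seeing the data, without Wt female 1 and Tg female 1. The mean difference of members, Tg minus Wt, lay between -0.857 points (without the library labelled Wt male) and 1.60 points (without Wt female 1) over these. The direction turned for Col9a2 at 20 or more reads per row (-2.96 points) and for Magel2 with 1000 bp on either side (-0.0532 points), and the cause was not tested. No paired analysis was made, because each library is a separate mouse and the labels name no matched animals. Depth limits the members more than promoters below the lower threshold, as most members have few rows and about 36 reads at each. The medians were 6 rows and 36.2 reads per row at members, against 44 rows and 48.8 reads. Promoters at or above the upper threshold were sampled more thinly than members, with medians of 4 rows and 25.4 reads per row.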

Other observations

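Members outside the lists, named after their values were seen, included genes of tissues other than brain. Among genes of muscle, Acta1, the skeletal muscle actin, was at 31.6% ± 8.0 (SD, n = 12) over 10 rows, Mylk2, the skeletal myosin light chain kinase, at 33.3% ± 8.73 over 5 rows, Cav3, the muscle caveolin, at 24.9% ± 7.48 over 6 rows and Myoz1, a Z-disc protein gene, at 26.0% ± 8.51 over 5 rows. Other muscle genes were higher, with Chrna1, a subunit of the muscle acetylcholine receptor, at 74.1% ± 9.41 over 5 rows, Lmod1, a leiomodin gene, at 57.5% ± 5.48 over 6 rows and Mymx at 47.1% ± 6.41 over 14 rows. No level was thus common to the muscle genes.

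Genes of liver and other endocrine and epithelial tissues were also members. Hnf4a, a liver transcription factor, was at 78.6% and Lep, which encodes the fat hormone leptin, at 79.2%, each over 3 rows. F7, which encodes a clotting factor made in liver, was at 34.8% with libraries from 8.89% to 65.1%, and Aqp2, a water channel of the kidney, at 30.9% over 4 rows. Lhb, a subunit of luteinizing hormone, was at 22.2% over 6 rows. None of these passed the genotype test.

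Some members were genes of the testis or germ cells, among them retrogenes and single-exon genes. Papolb, a poly(A) polymerase of germ cells, was at 44.8% (28.0% to 58.2%) over 21 rows, Aldoart2, a testis aldolase retrogene, at 60.8% (30.6% to 93.5%) over 6 rows, and Znrf4 at 60.6% (50.1% to 69.4%) over 22 rows. Prdm9, which marks sites of meiotic recombination, was at 22.3% (6.85% to 30.6%) over 6 rows. Levels of these genes thus ran from the lower to the upper part of the middle range.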
